A study of Mus musculus with 19 samples.

Results

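Interferon response genes are the genes that cells switch on when an interferon binds its receptor, together with the transcription factors that drive them. The 41 genes described here were taken from a list of names, of 26506 genes in the count table. All 41 were found in the table and all passed the filter on low counts in both tissues. The list uses no threshold on measured values. They comprise 4 transcription factors, 15 sensors and binders of RNA, 10 antiviral effectors, the modifier Isg15 with its protease Usp18, 6 interferon-inducible GTPases, 2 chemokines and 2 subunits of the immunoproteasome.

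The genes were measured by sequencing of poly(A)-selected RNA from kidney and liver tissue of male mice, from at least 20 mg of tissue. The 4 groups were macroH2A1.1 knockout kidney (KO, n = 5, libraries numbered 13, 14, 15, 16 and 18), wild-type kidney (WT, n = 5, numbered 19, 20, 22, 23 and 24), KO liver (n = 5, numbered as the KO kidneys) and WT liver (n = 4, numbered 19, 20, 22 and 24). MacroH2A1.1 is 1 of the isoforms of macroH2A1, a variant of histone H2A whose gene is H2afy. In the knockout the exon specific to it was removed from the germline by treating zygotes with soluble Cre, so that no cell type is spared. KO and WT mice came from matings of heterozygotes, on a C57BL/6J background reached by at least 10 generations of backcrossing. Ages were not stated in the labels. The housing text names a standard and a ketogenic diet without saying which mouse ate which. Each library held 25919138 to 35131720 counts in kidney and 26084473 to 34806035 counts in liver. The comparison asks whether loss of this isoform changes these genes in either tissue, and how far the tissues differ in them.

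Cytosolic sensors and toll-like receptors recognise foreign or misplaced nucleic acids and induce type I interferon. Signals from the receptor lead Stat2 and Irf9 to a DNA element called the interferon-stimulated response element. Type II interferon acts at a shorter element, the gamma-activated site, and through Irf1. Irf7 amplifies interferon production, while Usp18 dampens the receptor. Hepatocytes and the resident macrophages of the liver, and the tubule cells and macrophages of the kidney, can all mount this response.

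The sequences below are shown because these genes share an element at their start. They come from RefSeq (GRCm38.p6), which holds promoter windows, from 250 bases before to 50 bases after a start site, for 32 of the 41 genes. Dhx58, Ifi27, Iigp1, Mx1, Mx2, Oas2, Rtp4, Usp18 and Zbp1 had no entry. The core of the interferon-stimulated response element was searched on both strands as GAAA, any 2 bases and GAAA again. Capitals mark 1 match in each shorter window, which is written in the direction in which the match reads. In Bst2, Oas1a and Oas1g a further match overlaps its start and is left in lower case. The first line is the whole window of Isg15, in which 3 overlapping matches form 1 run, all in capitals.
Isg15, chr4:156200769-156201068, minus strand: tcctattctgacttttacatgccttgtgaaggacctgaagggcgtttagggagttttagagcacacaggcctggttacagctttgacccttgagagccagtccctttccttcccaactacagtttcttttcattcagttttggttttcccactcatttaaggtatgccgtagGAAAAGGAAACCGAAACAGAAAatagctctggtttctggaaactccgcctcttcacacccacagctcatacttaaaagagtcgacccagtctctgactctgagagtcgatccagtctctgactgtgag
Ifit1, chr19:34640789-34640828, minus strand: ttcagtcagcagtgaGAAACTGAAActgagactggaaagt
Ifit3, chr19:34583392-34583431, minus strand: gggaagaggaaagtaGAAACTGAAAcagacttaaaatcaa
Ifit3b, chr19:34607788-34607827, minus strand: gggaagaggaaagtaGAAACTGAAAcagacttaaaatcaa
Oas1a, chr5:120907515-120907554, minus strand: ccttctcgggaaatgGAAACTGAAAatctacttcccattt
Oas1g, chr5:120887601-120887640, minus strand: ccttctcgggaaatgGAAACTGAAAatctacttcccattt
Bst2, chr8:71537572-71537611, minus strand: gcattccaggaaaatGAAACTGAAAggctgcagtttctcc
Rsad2, chr12:26456548-26456587, plus strand: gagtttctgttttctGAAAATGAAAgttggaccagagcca
Gbp2, chr3:142620589-142620628, minus strand: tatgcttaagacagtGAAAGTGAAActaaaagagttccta
Igtp, chr11:58199507-58199546, plus strand: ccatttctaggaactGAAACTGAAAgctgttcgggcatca
Irf1, chr11:53769909-53769947, plus strand: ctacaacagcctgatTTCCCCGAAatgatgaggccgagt

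The line of Irf1 shows the gamma-activated site, searched as TTCNNNGAA, a sequence that reads alike on both strands. The interferon-stimulated core was present in 20 of the 32 genes (62.5%), against 3.99% of the 27025 genes in the promoter table. The gamma-activated motif was present in 9 of the 32 (28.1%), against 9.55% of all genes. The printed windows of Ifit3 and Ifit3b are the same, as are those of Oas1a and Oas1g. These pairs are near-identical copies. The longest transcripts of Ifit3 and Ifit3b were identical at 98% of 1697 aligned bases, and those of Oas1a and Oas1g at 97.5% of 1860. Reads can be split between such copies in counting, so the values of these 4 genes are uncertain. Of the 41 genes, 15 share annotated exon bases with another gene, over 10% of their length in Rtp4, Ifi35, Gbp7 and Psmb8. The sources used here do not give whether counting used the strand, and values of these genes may hold reads of the other gene.

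Some libraries stood apart. H2afy (ENSMUSG00000015937, chr13:56073619-56136361, minus strand, GRCm38), whose counts cover all isoforms, averaged 55.9 ± 4.5 CPM in KO kidneys and 83.4 ± 10.5 CPM in WT kidneys (SD, n = 5 each). It averaged 47.9 ± 4.45 CPM in KO livers and 73.1 ± 14 CPM in WT livers (SD, n = 5 and 4). The highest KO library had 61.1 CPM in kidney and 52.9 CPM in liver, and the library labelled WT 24 was the lowest of its group in both, at 65.6 and 53.5 CPM. H2afy did not pass the test of edgeR in kidney (log2 fold change -0.58, adjusted p = 0.135) or liver (-0.61, adjusted p = 0.384), and did so without WT 24 (-0.65, adjusted p = 0.00679, and -0.74, adjusted p = 0.0469). No interferon response gene passed with or without WT 24. The libraries numbered KO 15 and KO 18 held most of the high values of interferon response genes in liver, so that results are given with and without them. The tissue labels fitted the marker genes, summed over those past the filter on low counts. In kidney all 10 kidney markers passed it, and summed to 10933 to 13272 CPM in KO and 11743 to 13915 CPM in WT kidneys. In liver only 1 of them, Lrp2, passed it, with at most 2.21 CPM in any library. Of the 10, 8 had at most 10 counts in every liver library. In kidney 9 of 10 liver markers were tested, and summed to 1216 to 1522 CPM in KO and 1224 to 1395 CPM in WT kidneys. In liver all 10 were tested, and summed to 93164 to 123401 CPM in KO and 99242 to 103156 CPM in WT livers.

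**Figure D1:**
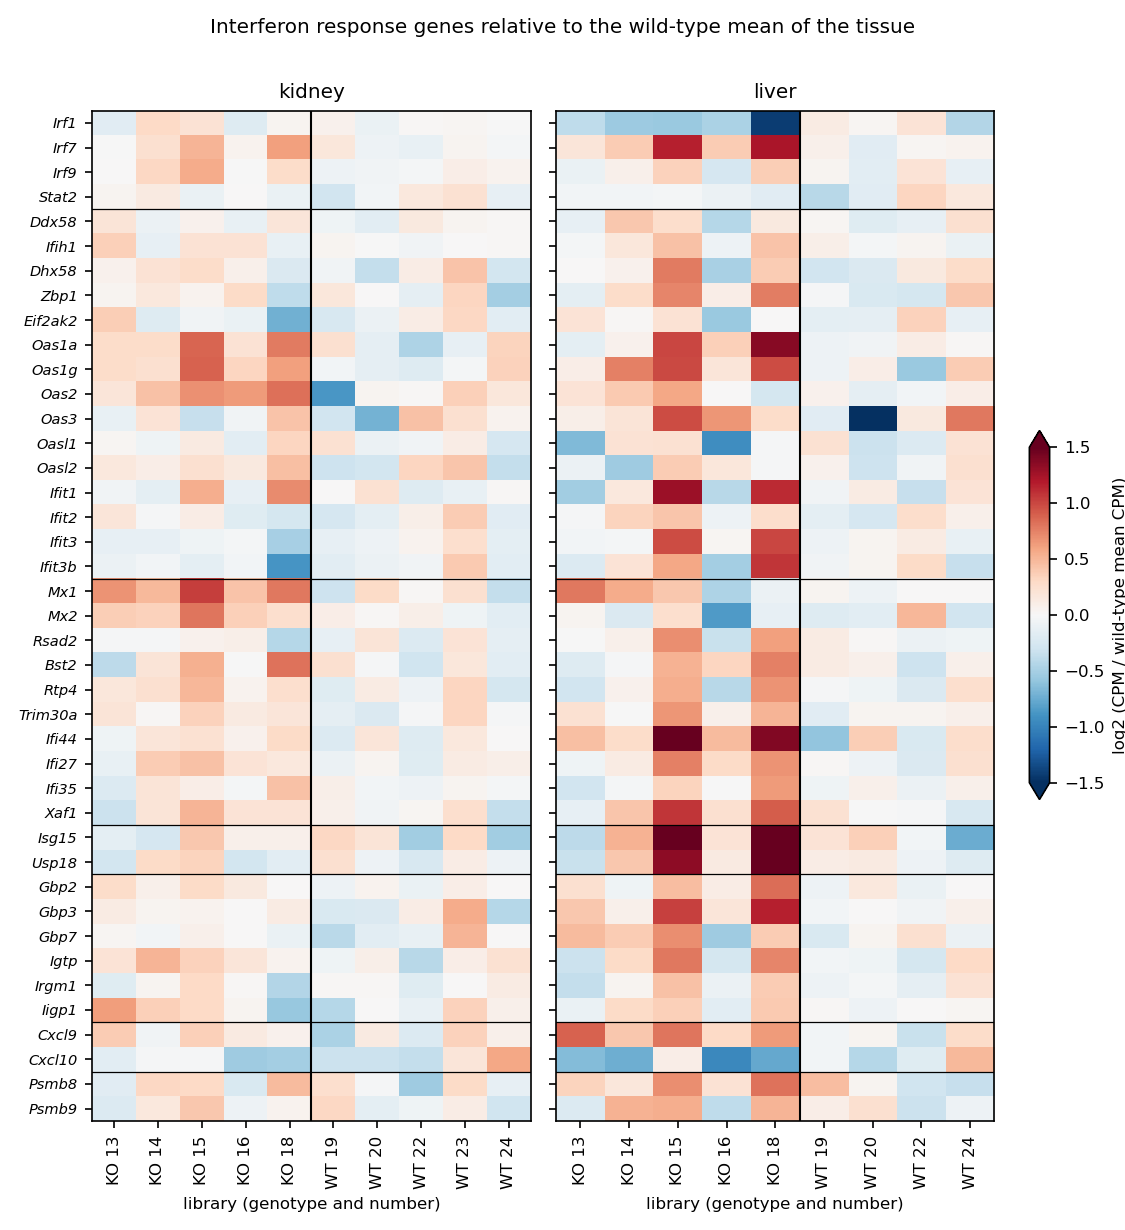
Level of each of the 41 genes (rows, ordered by role) in each library (columns), as log2 of CPM over the mean of the WT libraries of the tissue, in kidney (left) and liver (right), with KO libraries left of WT libraries. The red columns of liver are KO 15 and KO 18, whose medians over the 41 genes were 0.58 and 0.62, against -0.06 to 0.17 in the other KO livers and -0.04 to 0.07 in the WT livers.

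In kidney, loss of macroH2A1.1 moved no interferon response gene past the threshold, an adjusted p of 0.05 by the quasi-likelihood test of edgeR. Of all 17269 genes tested, 1 (0.00579%) passed. DESeq2 and limma voom also called 0 of the 41. The log2 fold changes of KO over WT were small, between -0.23 and 0.69, with a median of 0.12 over the 41 genes and 0.01 over all genes. They were positive for 32 of the 41, against 52.2% of all genes. At an unadjusted p under 0.05 there were 9 of the 41, where 2.95% of all genes were so, and all 9 were positive, where 1.73% of all genes were positive at this p and 1.22% negative. DESeq2 gave 8 such genes (3.1% of all genes), voom 9 (3.98%) and 1 fit of all 19 libraries 4 (2.05%). Leaving out 1 number at a time gave 2 to 10 such genes, against 2.4% to 5.54% of all genes. There were 2 without KO 15 (3.11%), 5 without WT 19 (2.44%), and 4 without WT 20 (2.4%) or without WT 22 (2.42%).

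The antiviral GTPase gene Mx1 (ENSMUSG00000000386, chr16:97447035-97462907, minus strand) had the smallest p in kidney. In C57BL/6 mice both Mx genes carry inactivating changes, and the annotation lists Mx2 as a polymorphic pseudogene. Mx1 stood at 1.68, 1.47, 2.16, 1.41 and 1.81 CPM in KO kidneys 13, 14, 15, 16 and 18, against 0.845, 1.28, 1.06, 1.24 and 0.822 CPM in WT kidneys 19, 20, 22, 23 and 24. Every KO kidney lay above every WT kidney. The log2 fold change was 0.69 (SE 0.22, unadjusted p = 0.00671, adjusted p = 0.999). Mx2 also had no overlap, at 1.93, 1.9, 2.6, 1.91 and 1.78 CPM in KO kidneys against 1.6, 1.51, 1.58, 1.42 and 1.34 CPM in WT kidneys. Its log2 fold change was 0.44 (SE 0.18, adjusted p = 0.999). These were the only 2 of the 41 genes with every KO kidney above every WT kidney, where 0.29% of all genes were so, and none lay wholly below, where 0.272% did.

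The oligoadenylate synthetases make the small molecule that activates RNase L, which cleaves RNA. Oas2 stood at 3.8, 4.54, 5.37, 5.2 and 5.92 CPM in KO kidneys, against 1.82, 3.44, 3.38, 4.29 and 3.77 CPM in WT kidneys. WT 23 lay above the lowest KO kidney, and WT 19 was the lowest library. For Oas2 the log2 fold change was 0.57 (SE 0.20). Oas1a stood at 3.58, 3.58, 5.41, 3.44 and 5.1 CPM in KO kidneys, against 3.51, 2.7, 2.15, 2.72 and 3.73 CPM in WT kidneys, with KO 15 and KO 18 the highest. Its log2 fold change was 0.51 (SE 0.19), and that of its near copy Oas1g was 0.49 (SE 0.23). All 3 had an adjusted p of 0.999 in edgeR, as did every other gene named for kidney in the next 2 paragraphs unless stated. Oas3, Oasl1 and Oasl2 had log2 fold changes of 0.06, 0.06 and 0.22.

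Among the transcription factors, Irf7 stood at 14.5, 17.1, 20.7, 15 and 22.2 CPM in KO kidneys, against 16.3, 13.8, 13.4, 14.9 and 14.2 CPM in WT kidneys. KO 15 and KO 18 were again the highest, while KO 13 and KO 16 lay within the WT range. The log2 fold change of Irf7 was 0.30 (SE 0.12). Irf9, the DNA-binding partner of Stat2, had 0.24 (SE 0.11), and KO 15 was its highest library at 30.9 CPM. Stat2 and Irf1 had 0.00 and 0.05, and Stat2, with an adjusted p of 1, changed sign under several settings.

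Of the other antiviral effectors, Ifi27 had a log2 fold change of 0.23 (SE 0.10), Rtp4 of 0.25 (SE 0.14) and Bst2, the tetherin that holds budding virus at the membrane, of 0.29 (SE 0.19). Igtp, a GTPase of the defence against parasites in vacuoles, had 0.27 (SE 0.12). The modifier Isg15 and its protease Usp18 had 0.04 and 0.00 (SE 0.20 and 0.17). Of the Ifit genes, which bind the ends of foreign RNA, Ifit1 had 0.24, Ifit2 -0.02, Ifit3 -0.16 and Ifit3b -0.21. Ifit3 and Ifit3b were lowest in KO 18, at 18.9 and 4.56 CPM, the same kidney in which Ifit1 was highest at 9.72 CPM. The chemokine genes Cxcl9 and Cxcl10 had 0.18 and -0.23, and the immunoproteasome genes Psmb8 and Psmb9 had 0.16 and 0.08.

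**Figure D2:**
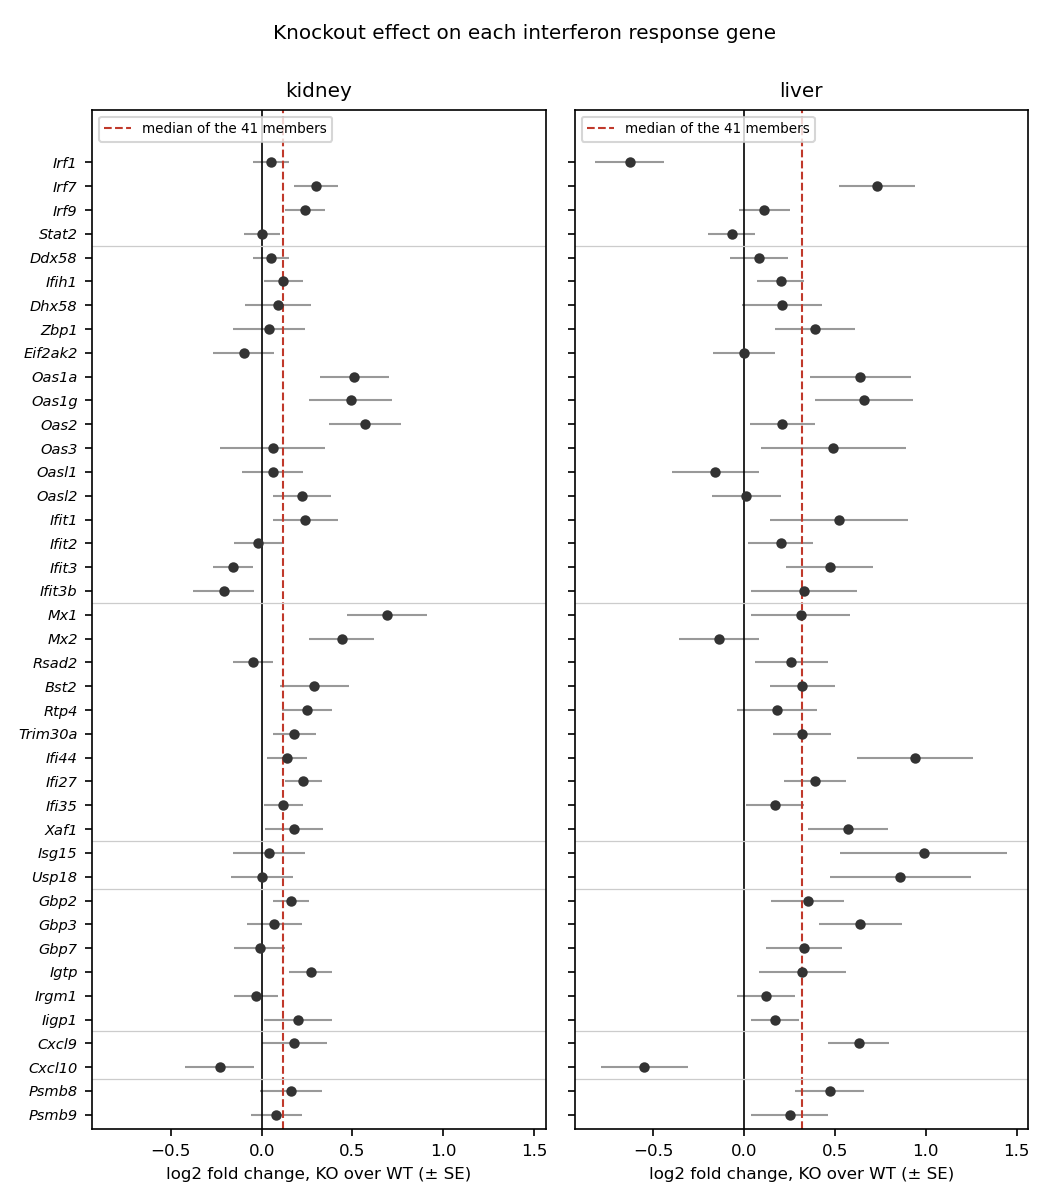
Log2 fold change of KO over WT for each of the 41 genes (points, with 1 standard error on each side), in kidney (left) and liver (right), with the median of the 41 as a dashed line, at 0.12 in kidney and 0.32 in liver. Isg15, Ifi44 and Usp18 lie farthest right in liver, Irf1 and Cxcl10 lie left of 0 there, and Mx1, Oas2, Oas1a and Oas1g lie farthest right in kidney; none passed the threshold.

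Liver gave larger log2 fold changes, and again none of the 41 passed, with an adjusted p of at least 0.725 in edgeR. Of all 14591 genes tested in liver, 0 (0%) passed, and DESeq2 and limma voom called 0 of the 41. The log2 fold change was positive for 36 of the 41 genes, against 51.3% of all genes, with a median of 0.32 against 0.00. At an unadjusted p under 0.05 there were 11 of the 41, where 4.17% of all genes were so; 9 were positive and 2 negative, where 2.08% of all genes were positive at this p and 2.09% negative. DESeq2 gave 13 such genes (4.63% of all genes), voom 15 (7.74%) and 1 fit of all 19 libraries 16 (7.25%). With 1 number left out at a time this count ran from 5 to 16, against 3.11% to 6.25% of all genes. It was 6 without KO 15 (3.11%), 5 without KO 18 (3.29%), 7 without WT 19 (3.87%) and 6 without WT 22 (3.93%). Without KO 15 and KO 18 together, 23 of the 41 were positive, against 48.7% of all genes, the median was 0.03, and 4 had an unadjusted p under 0.05, 2 positive and 2 negative, where 2.91% of all genes had one.

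Irf7 (ENSMUSG00000025498, chr7:141262706-141266481, minus strand) stood at 40.2, 46, 79.1, 46.1 and 82.4 CPM in KO livers 13, 14, 15, 16 and 18, against 37.2, 31.3, 36.1 and 36.7 CPM in WT livers 19, 20, 22 and 24. All KO livers lay above all WT livers, and KO 15 and KO 18 lay far above the other 3. On the log2 scale the change was 0.73 (SE 0.21, adjusted p = 0.885), and 0.32 (adjusted p = 1) without KO 15 and KO 18. Cxcl9, a chemokine that draws activated T cells, stood at 10, 7.2, 9.49, 6.66 and 8.44 CPM in KO livers against 5.28, 5.58, 4.3 and 6.58 CPM in WT livers. Its groups did not overlap either, and here KO 13 was the highest. Its log2 change was 0.63 (SE 0.17, adjusted p = 0.725), and 0.55 without KO 15 and KO 18. Irf7 and Cxcl9 were the only 2 of the 41 genes with every KO liver above every WT liver, where 0.795% of all genes were so, and none lay wholly below, where 0.761% did.

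Irf1 (ENSMUSG00000018899, chr11:53770014-53778374, plus strand) went the other way. It stood at 32, 28.5, 28.4, 30 and 15.5 CPM in KO livers, against 45.3, 42.5, 48.2 and 30.8 CPM in WT livers. WT 24 was the only WT liver within the KO range, and KO 18, among the highest for Irf7, was the lowest for Irf1. Its log2 change was -0.63 (SE 0.19, adjusted p = 0.934), and -0.47 without KO 15 and KO 18. Cxcl10, which binds the same receptor as Cxcl9, stood at 3.74, 3.52, 6.25, 3 and 3.44 CPM in KO livers, against 5.67, 4.35, 5.17 and 8.2 CPM in WT livers. Only KO 15 lay within the WT range. For Cxcl10 the log2 change was -0.55 (SE 0.24, adjusted p = 1), and -0.77 without KO 15 and KO 18. Irf9 and Stat2 had 0.11 and -0.07.

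The modifier Isg15 (ENSMUSG00000035692, chr4:156199424-156200818, minus strand) had the largest log2 fold change in liver, 0.99, with a standard error of 0.46. It stood at 6.76, 12.7, 27, 10.2 and 31.2 CPM in KO livers, against 10.2, 11.3, 8.62 and 5.26 CPM in WT livers. Usp18, the protease that removes Isg15 from proteins, stood at 7, 11.7, 22.5, 9.69 and 29.8 CPM in KO livers, against 9.59, 9.69, 8.41 and 7.74 CPM in WT livers. In both genes KO 15 and KO 18 were the highest, and KO 13 lay below the WT mean. Usp18 had a log2 fold change of 0.86 (SE 0.39). Without KO 15 and KO 18 the values were 0.16 for Isg15 and 0.09 for Usp18. The adjusted p was 1 for both, as for the liver genes of the next paragraph.

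Ifi44 stood at 2.57, 2.26, 5.51, 2.6 and 4.92 CPM in KO livers, against 1.24, 2.41, 1.6 and 2.24 CPM in WT livers. Only WT 20 lay above a KO liver, and the log2 fold change was 0.94 (SE 0.32). Ifit1 stood at 5.8, 9.27, 20.2, 6.23 and 18.1 CPM in KO livers, against 8, 9.09, 6.57 and 9.63 CPM in WT livers. Its log2 fold change was 0.52 (SE 0.38), and -0.23 without KO 15 and KO 18, which held its 2 high values. Gbp3, a guanylate-binding GTPase, had 0.64 (SE 0.23), Xaf1, a promoter of apoptosis, 0.57 (SE 0.22), Psmb8 0.47 (SE 0.19) and Ifi27 0.39 (SE 0.17). Oas1a and Oas1g had 0.64 and 0.66 (SE 0.28 and 0.27), and Ifit3 and Ifit3b had 0.47 and 0.33 (SE 0.24 and 0.29). All 6 GTPase genes and 14 of the 15 RNA sensors and binders had positive values, as did 9 of the 10 antiviral effectors and 51.3% of all genes. The sensor genes Ddx58 and Ifih1, which detect viral RNA in the cytosol, had 0.08 and 0.20, and the kinase gene Eif2ak2 had 0.00.

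**Figure D3:**
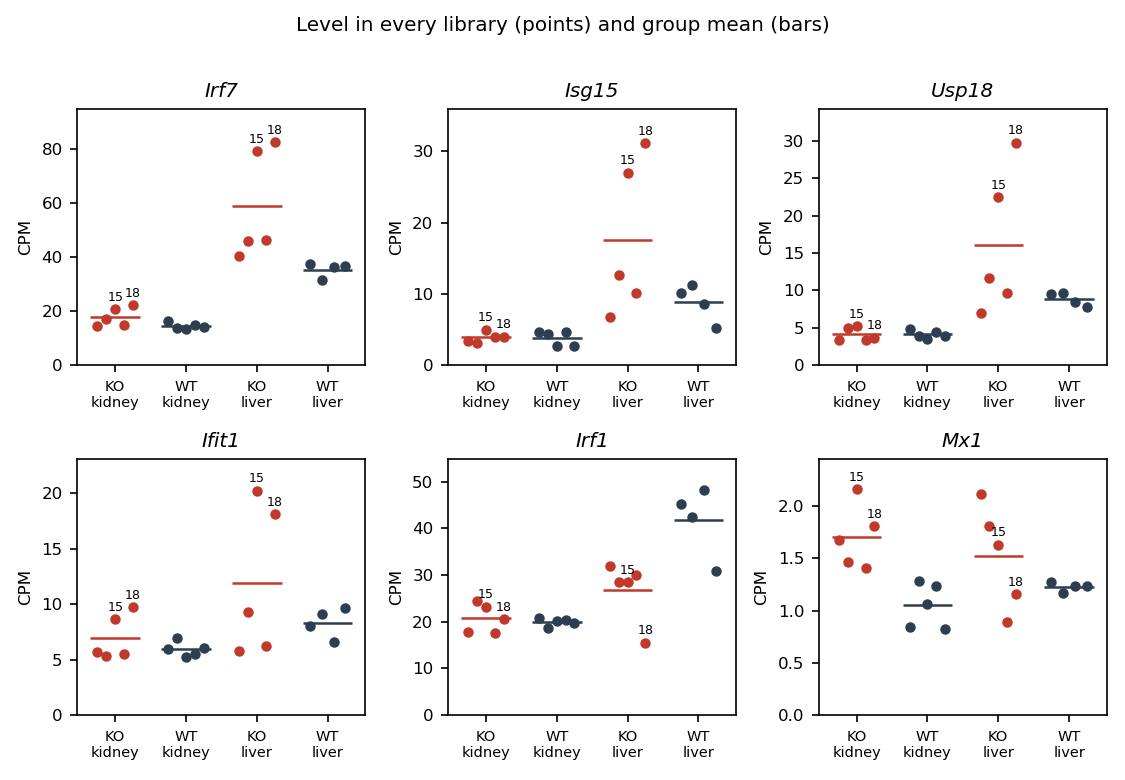
CPM of 6 of the genes in every library (points) with group means (bars), KO left of WT in kidney and then in liver, with KO 15 and KO 18 numbered. In liver KO 15 and KO 18 reach 79.1 and 82.4 CPM of Irf7 where no WT liver exceeds 37.2 CPM, while the other KO livers reach at most 46.1 CPM; Irf1 is lowest there in KO 18 at 15.5 CPM.

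The high values in liver came mostly from KO 15 and KO 18. These were the 2 highest of the 9 liver libraries for 26 of the 41 genes, where this held for 6.5% of all genes. Both lay above every WT liver for 30 of the 41, against 11.8% of all genes. KO 15 exceeded 1.5 times the WT mean for 20 of the 41 genes and KO 18 for 21, where 5.07% and 6.63% of all genes did so. KO 13, KO 14 and KO 16 did so for 2, 1 and 1 of the 41, against 7.12%, 5.67% and 5.34% of all genes, and the WT livers for at most 1. For 16 genes both KO 15 and KO 18 did, against 2.17% of all genes. These were Cxcl9, Gbp3, Ifi27, Ifi44, Ifit1, Ifit3, Igtp, Irf7, Isg15, Oas1a, Oas1g, Psmb8, Rsad2, Usp18, Xaf1 and Zbp1. Since KO 15 and KO 18 were singled out for these values, the counts describe the libraries and test nothing. Summed over the 41 genes, the CPM were 1063, 1246, 1630, 1162 and 1673 in KO livers 13, 14, 15, 16 and 18, and 1161, 1118, 1102 and 1196 in WT livers.

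In kidney the pattern was smaller. KO 15 and KO 18 were the 2 highest of 10 kidneys for 8 of the 41 genes, Bst2, Ifi44, Ifit1, Irf7, Mx1, Oas1a, Oas1g and Oas2, where 4.12% of all genes had them so. Both lay above every WT kidney for 13 of the 41, against 6.97% of all genes. KO 15 exceeded 1.5 times the WT mean for 5 of the 41 genes (3.16% of all genes) and KO 18 for 7 (8.54%), both together for Mx1, Oas1a, Oas1g and Oas2 (1.25%). KO 13, KO 14 and KO 16 did so for 2, 0 and 1 (4.99%, 4.19% and 4.8%). For 10 genes KO 15 and KO 18 lay above every WT library in both tissues, against 1.67% of all genes: Bst2, Ifi27, Ifi35, Ifi44, Ifit1, Irf7, Irf9, Oas1a, Oas1g and Psmb8. The titles give a kidney and a liver library the same number without saying that they came from 1 mouse. KO 18 was at the same time the lowest kidney for 7 of the 41 genes, and WT 23 the highest for 9. Neither count was made over all genes, so they describe the libraries and not a trait of the 41. Without KO 15 and KO 18, 30 of the 41 genes had a positive log2 fold change in kidney, against 50.5% of all genes, with a median of 0.06. Of the 41, 2 (Igtp and Iigp1) then had an unadjusted p under 0.05 in edgeR, where 3.19% of all genes had one. Left out alone, WT 23 moved the kidney median to 0.19, KO 15 the liver median to 0.21 and KO 18 the liver median to 0.20.

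**Figure D4:**
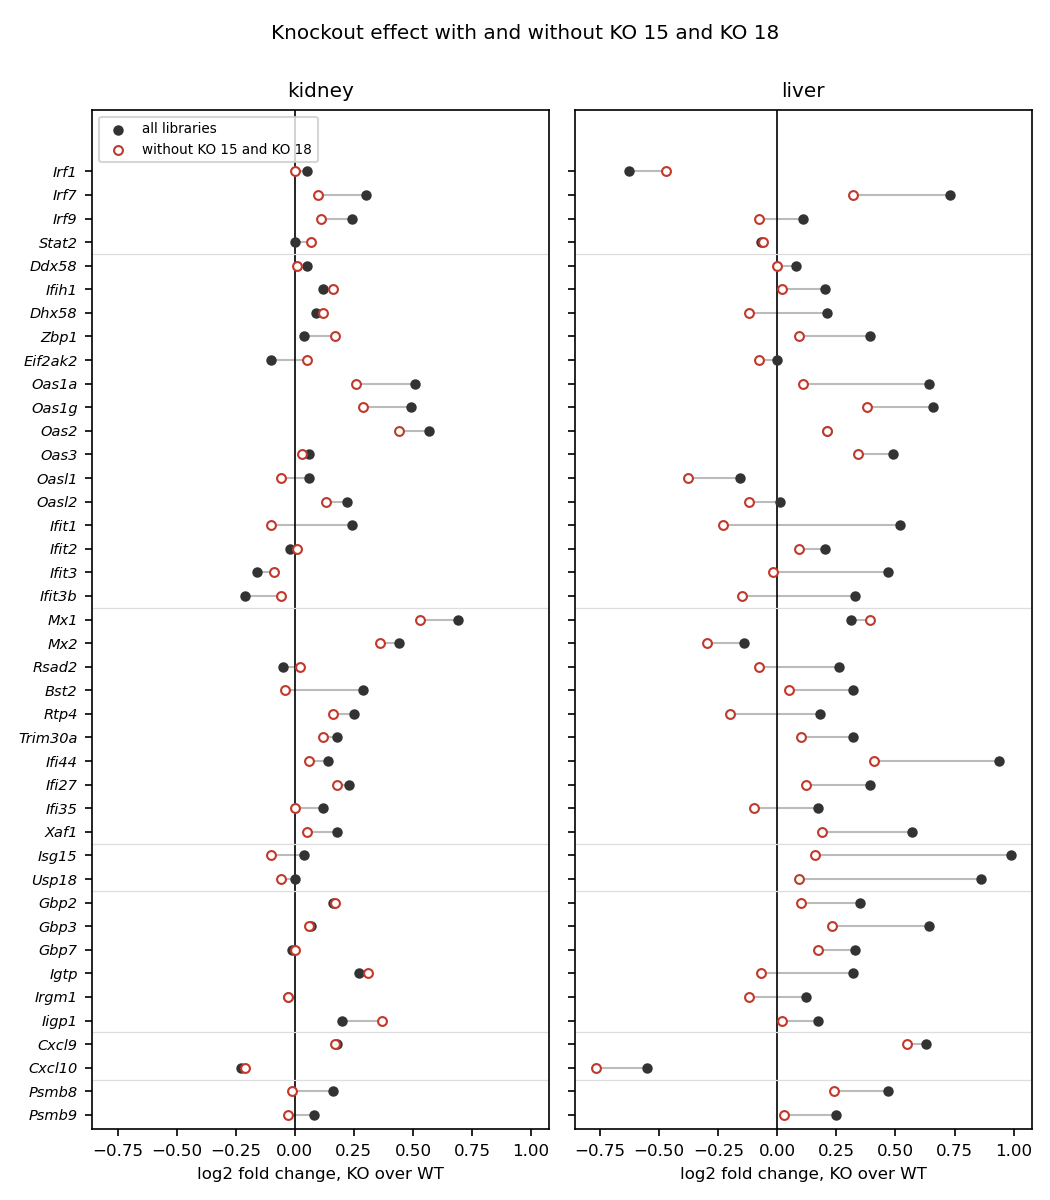
Log2 fold change of KO over WT for each gene with all libraries (filled) and without KO 15 and KO 18 (open), in kidney (left) and liver (right). In liver the open points gather near 0, with a median of 0.03 against 0.32, and Irf1, Cxcl10 and Cxcl9 keep most of their distance from 0.

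Sums of marker genes were set beside these values. Summed over 28 tested leukocyte markers, the CPM were 212, 152, 181, 181 and 159 in KO livers 13, 14, 15, 16 and 18, and 226, 188, 216 and 167 in WT livers, so the sums of KO 15 and KO 18 lay within the range of the rest. The median marker, as log2 CPM over the WT mean, was lowest in KO 18 at -0.37. It was -0.01 in KO 15, and all livers but KO 18 had -0.21 to 0.09. Of the 28 leukocyte markers, 11 had a positive KO log2 fold change, against 51.3% of all genes, with a median of -0.11. Liver markers, most of them made by hepatocytes, summed to 104781 CPM in KO 15 and 123401 CPM in KO 18, the 2 highest livers, where the other 7 had 93164 to 103156 CPM. In kidney the leukocyte sums were 134 to 149 CPM in KO libraries and 141 to 169 CPM in WT libraries, over 25 tested markers. Of these 11 were positive, against 52.2% of all genes, with a median of -0.02. Ly6g, a defining marker of neutrophils, had at most 10 counts per library in both tissues. In kidney so did Clec4f, Timd4, Marco and Vsig4, which mark the resident macrophages of the liver and say little of those of the kidney. Cd68, a broader macrophage marker, was tested in kidney, with a log2 fold change of -0.12 (SE 0.17). Endothelial markers summed to 274 to 306 CPM in KO livers and 253 to 315 CPM in WT livers. Acute-phase genes, induced in hepatocytes by inflammation, summed to 4190 to 5867 CPM in KO livers and 4594 to 6181 CPM in WT livers. The part of these markers in the result was not tested. In whole tissue, fewer cells of a type and less RNA per cell cannot be told apart.

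The genes were also tested for a difference of the knockout effect between the tissues. None of the 41 passed, and none of 18549 genes (0%) did. DESeq2 and limma voom called 0 of the 41 here too. At an unadjusted p under 0.05 there were 3 of the 41, against 4.12% of all genes, 5 with DESeq2 (4.84%) and 3 with voom (4.51%). With 1 number left out the count ran from 2 to 8, against 3.54% to 5.67% of all genes. It was 6 without KO 13 (5.27%), 5 without KO 14 (5.67%) and 8 without KO 16 (4.06%). Irf1 had a difference, kidney minus liver, of 0.68 (SE 0.22, adjusted p = 0.927), with 20.7 ± 3.15 CPM in KO kidneys and 20 ± 0.813 CPM in WT kidneys (SD, n = 5 each) beside the lower KO level in liver. Ifi44 had -0.81 (SE 0.32) and Ifit3 -0.63 (SE 0.27), each with an adjusted p of 1. The difference was negative for 30 of the 41 genes and positive for 11, where 50.2% of all genes were positive, with a median of -0.15, which was -0.23 without KO 16 and -0.06 without KO 18. Without KO 15 and KO 18 it was negative for 15, with a median of 0.09, where 49.7% of all genes were positive. By sign alone, 29 genes had a positive knockout effect in both tissues and 2, Stat2 and Cxcl10, a negative one in both. The share over all genes was not counted. As 32 of the 41 were positive in kidney and 36 in liver, most had to be positive in both, so the 29 show no agreement between tissues. Irf1, Oasl1 and Mx2 were positive in kidney and negative in liver, and Eif2ak2, Ifit2, Ifit3, Ifit3b, Rsad2, Gbp7 and Irgm1 were the reverse.

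Between the tissues most of the 41 genes differed. In KO mice 36 of the 41 genes differed between kidney and liver by edgeR with Benjamini-Hochberg adjustment, where 73.8% of 16823 genes did, with 5 higher in kidney and 31 lower, against 39.8% and 33.9% of all genes. In WT mice 37 differed, where 75.4% of 17428 genes did, with 7 higher in kidney and 30 lower, against 41.6% and 33.9%. Library totals in place of TMM gave 11 higher and 21 lower in KO mice, against 70.9% and 13% of all genes, and 12 higher and 21 lower in WT mice, against 71.9% and 13.4%. This scaling moved the median of all genes to 1.03 in both genotypes, against 0.10 in KO and 0.14 in WT mice with TMM. Relative to the median of all genes, the median of the 41 was -1.60 in KO and -1.53 in WT mice on the log2 scale under both scalings. A change of scaling shifts all genes by nearly the same amount, so this sameness was fixed in advance and is no check. In both genotypes 4 genes were higher in kidney, against 37.4% of all genes, and 30 were lower, against 31.8%. Library totals changed the sign of 9 genes in KO mice (Ddx58, Eif2ak2, Oas2, Ifit3, Mx1, Trim30a, Gbp3, Gbp7 and Cxcl10) and of 6 in WT mice (Ddx58, Eif2ak2, Trim30a, Xaf1, Gbp7 and Cxcl10). They raised the share of all genes with a positive ratio from 53.1% to 80.6% in KO mice. In WT mice that share rose from 54.5% to 81.1%, so such changes were not particular to the 41.

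Iigp1, a GTPase that attacks parasite vacuoles, was the most liver-weighted of the genes. Its log2 ratio of kidney over liver was -5.34 in KO mice (adjusted p = 2.02e-11) and -5.36 in WT mice (adjusted p = 4.72e-14). Per kilobase of annotated exon, scaled over all 19 libraries, it averaged 1.65 ± 0.468 CPM in KO kidneys and 66.3 ± 12.1 CPM in KO livers (SD, n = 5 each). In WT mice it averaged 1.44 ± 0.282 CPM per kb in kidneys (SD, n = 5) and 58.9 ± 1.68 CPM per kb in livers (SD, n = 4). Bst2 had -4.54 in KO and -4.50 in WT mice, Oasl1 -3.39 and -3.60, Mx2 -2.89 and -3.45, and Stat2 -2.67 and -2.72. Dhx58, a regulator of the RNA sensors, had -2.76 and -2.62, Ifi27 -2.56 and -2.38, and Rtp4 -2.27 and -2.32. These 8 genes were the lowest in WT mice, and passed the threshold in both genotypes under every alternative tried. In KO mice Isg15 and Usp18 lay among them, at -3.08 and -2.88, against -2.13 and -2.01 in WT mice. KO 15 and KO 18 were the highest livers for both, and without them the knockout effect in liver was 0.16 and 0.09. Neither gene passed for the difference of the knockout effect between tissues.

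The genes higher in kidney in both genotypes were Ifi44, Ifit2, Rsad2 and Gbp2. Ifi44 had a log2 ratio of kidney over liver of 1.23 in KO mice (adjusted p = 0.000221) and 2.04 in WT mice (adjusted p = 1.76e-07). Ifit2 had 1.29 and 1.53, Rsad2, which encodes the antiviral enzyme viperin, 1.12 and 1.45, and Gbp2 0.93 and 1.14. Family members differed in direction. Ifit1, in the same cluster on chromosome 19 as Ifit2, was lower in kidney, with -1.69 in KO and -1.39 in WT mice, although with library totals it did not pass in KO mice. Ifit3 and Ifit3b did not pass in KO mice (-0.11 and 0.07) and were higher in kidney in WT mice (0.53 and 0.62, adjusted p = 0.000508 and 0.00455). Both did pass in KO mice without KO 15 and KO 18, and also with library totals. The difference between the genotypes is the same contrast as the difference of the knockout effect between tissues above, which neither gene passed. Eif2ak2 and Gbp7 passed in neither genotype, as did 19.4% of all genes, and with library totals both were higher in kidney, by 0.56 and 0.54 in KO mice and by 0.63 and 0.85 in WT mice. Gbp7 passed in KO mice without KO 16 (-0.55, adjusted p = 0.00306), and Eif2ak2 passed in KO mice without KO 13 (-0.46, adjusted p = 0.0472) and in WT mice without WT 23 (-0.34, adjusted p = 0.0454).

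**Figure D5:**
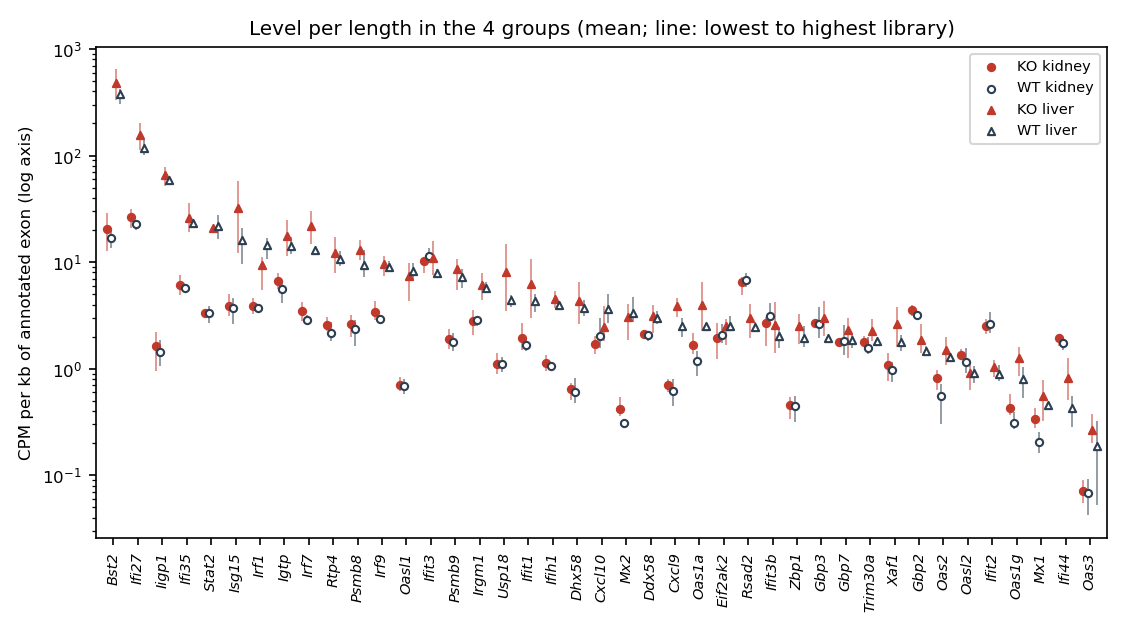
Mean CPM per kb of annotated exon (log axis) of each gene in KO kidney, WT kidney, KO liver and WT liver, left to right within a gene, with lines from the lowest to the highest library. Genes run from the highest to the lowest in WT liver; Bst2 and Ifi27 lead, and the kidney means lie above the liver means in both genotypes for Rsad2, Gbp2, Ifit2 and Ifi44 among others.

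Ordered per length, Ifi27 and Bst2 led in kidney, at 26.7 ± 4.1 and 20.5 ± 6.39 CPM per kb in KO mice and 22.9 ± 2 and 16.9 ± 2.56 CPM per kb in WT mice (SD, n = 5). Their ranges over the KO kidneys overlapped. In liver Bst2 led with 475 ± 128 CPM per kb in KO mice (SD, n = 5) and 382 ± 51 CPM per kb in WT mice (SD, n = 4), before Ifi27 with 156 ± 39.4 and 119 ± 15.4 and Iigp1. Oas3 was the lowest in all groups, at 0.0704 CPM per kb in KO kidneys, 0.0686 in WT kidneys, 0.263 in KO livers and 0.189 in WT livers. The median over the 41 genes was 1.94 CPM per kb in KO kidneys, 2.02 in WT kidneys, 3.92 in KO livers and 3.61 in WT livers. Isg15 ran from 12.3 to 57.6 CPM per kb in KO livers and from 9.6 to 21.1 in WT livers.

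The genes were then set side by side by the motif at their start, without a test. The 20 genes with the interferon-stimulated core had a median log2 fold change of 0.06 in kidney and 0.33 in liver, with 12 and 17 positive. The 12 genes whose window held no match had 0.15 in kidney and 0.23 in liver, with 11 and 10 positive. Of all genes, 52.2% were positive in kidney and 51.3% in liver. Isg15, with 3 matches, stood at 0.99 in liver, and Ifi44, with none in its window, at 0.94.

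The rest of the pathway was described from further lists, and none of their genes passed the threshold in either tissue. Of 21 interferon genes listed, the table held Ifnk and Ifng, with at most 5 and 7 counts in any library, and none could be tested. Of all genes tested, 52.2% had a positive knockout effect in kidney (median 0.01) and 51.3% in liver (median 0.00). Receptors and signal carriers had a positive knockout effect for 9 of 25 genes in kidney and 9 of 24 in liver. The smallest p were those of Ifnar2, a chain of the type I receptor (-0.25, SE 0.09), Socs3 (-0.49) and Irf8 (-0.25) in kidney, and of Irf2bp2 (0.77, SE 0.18, adjusted p = 0.524), Pias1 (-0.18) and Irf8 (0.27) in liver. Other genes induced by interferon were positive for 49 of 82 in kidney (median 0.04) and 58 of 79 in liver (median 0.10). Their smallest p were those of Ifi203 (0.32), Phf11a (-0.69) and Ifitm1 (-0.38) in kidney, and of Gvin1, Znfx1 (-0.29) and Trim30d (0.55) in liver. Antigen presentation genes were positive for 21 of 24 in kidney and 19 of 24 in liver, with a median of 0.08 in each, led by H2-Q6 (0.32), H2-Q7 (0.38) and Nlrc5 (0.30) in kidney and by H2-T23 (0.32), Tapbp (0.24) and H2-T22 (0.25) in liver. By library, their median log2 CPM over the WT mean was -0.11 to 0.22 in KO kidneys and -0.12 to 0.18 in WT kidneys. In liver it was -0.05 to 0.33 in KO and -0.18 to 0.18 in WT libraries, so the groups overlapped in both tissues. H2-Q6 and H2-Q7 are close relatives that may share reads.

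Nucleic acid sensors outside the 41 were positive for 12 of 21 genes in kidney and 10 of 20 in liver, against 52.2% and 51.3% of all genes. Tlr7, the endosomal receptor for single-stranded RNA, stood first in both. It had 1.71, 2, 1.72, 2.38 and 2.75 CPM in KO kidneys, against 1.13, 1.34, 1.48, 1.42 and 1.27 CPM in WT kidneys, and 1.02, 0.646, 1.12, 0.89 and 0.703 CPM in KO livers, against 0.502, 0.234, 0.545 and 0.271 CPM in WT livers. The groups overlapped in neither tissue. Every KO library lay above every WT library for 0.29% of all genes in kidney and 0.795% in liver. The WT liver values of Tlr7, from 0.234 to 0.545 CPM, lay near the floor. Its log2 fold change was 0.67 in kidney (SE 0.20, adjusted p = 0.999) and 1.15 in liver (SE 0.35, adjusted p = 0.915). Tlr9 (0.77) and Ticam1 (-0.14) followed in kidney, and Ikbke (-0.29) and Cgas (0.52) in liver. Gvin1, a very large interferon-inducible GTPase, stood at 1.02, 1.36, 1.35, 0.824 and 2.18 CPM in KO livers, against 0.354, 0.501, 0.454 and 0.619 CPM in WT livers, again without overlap (0.795% of all genes). Its log2 fold change in liver was 1.48 (SE 0.34, unadjusted p = 0.000778, adjusted p = 0.473), and 0.06 in kidney. For Tlr7 and Gvin1 the high values were not those of KO 15 and KO 18 alone. Both were named for the smallest p of their lists, Gvin1 in liver.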

How the data were processed

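Gene counts were measured in 19 poly(A) libraries. The values are raw counts per gene as deposited by the authors, unnormalized. Per the submitters' processing notes, Trim Galore, STAR, featureCounts, DESeq2 and the build GRCm38 were used, without versions. Of 26506 gene identifiers, 26417 matched the annotation of GENCODE mouse release 21 and 89 did not.

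Groups follow the genotype and tissue in the labels. The labels do not state that each library is another animal, and p-values then cover the spread between libraries, which may be technical. edgeR 4.0.16 (R 4.3.3; quasi-likelihood, robust, TMM, filterByExpr with a minimum count of 10) was fitted per tissue for the knockout effect, on all 19 libraries for the difference between tissues, and per genotype for kidney over liver. P-values are two-sided, adjusted by Benjamini-Hochberg over all genes tested, at a threshold of 0.05. CPM are TMM-scaled. Fits were tested on simulated data. Alternatives used DESeq2 1.42.0, limma 3.58.1 voom with sample weights, other scalings and filters, and fewer libraries.

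The 41 genes, the 10 other lists (261 genes, 236 in the table), the libraries left out and the tests were chosen with earlier results of these data known. Named by rule were the 10 smallest p per tissue, Irf1, Irf7, Irf9, Stat2, the copies Ifit3, Ifit3b, Oas1a and Oas1g, the 3 smallest p for the difference and in each list, and the extremes between tissues. Isg15, Usp18, Ifit1 and the rest were named after their values were seen.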

Additional observations from a re-analysis of the deposited data

Results flagged for a closer look

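A library far from the others of its group was found for 7 of the 62 gene and group combinations tested, where chance gives about 1 in 20. In kidney, KO 18 was low for Ifit3 at 18.9 CPM, where the other KO kidneys had at least 24.6 CPM, and low for its copy Ifit3b at 4.56 CPM, where the next had 7.57 CPM. WT 23 was high for Ifit3b at 11 CPM, where the next WT kidney had 8.09 CPM. Reads of Ifit3 and Ifit3b can be split between the copies, so their values are not independent. KO 15 was high for Mx2 at 2.6 CPM, where the next KO kidney had 1.93 CPM. WT 24, the library with low H2afy, was high for Oas1g at 1.23 CPM, where the next WT kidney had 0.948 CPM. In liver, KO 18 was low for Irf1 at 15.5 CPM, where the other KO livers had at least 28.4 CPM. KO 15 was high for Cxcl10 at 6.25 CPM, where the next KO liver had 3.74 CPM.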

How the results depend on the processing

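None of the 41 genes passed the threshold for the knockout effect in kidney, in liver or for the difference between tissues under any alternative tried, including DESeq2 and limma voom. The number of all genes past it did change: in kidney it was 1, against 15 with DESeq2, 4 with voom and 10 without KO 16; in liver it was 0, against 42 with DESeq2, 5 with voom and 21 in 1 fit of all 19 libraries; for the difference it was 0, against 11 with DESeq2. Leaving out KO 15 and KO 18, a setting chosen with earlier results known, moved the liver median of the 41 genes to 0.03 and turned Irf9 to -0.08, Ifit3 to -0.02 and Ifit3b to -0.15. Stat2 lay near 0 and changed sign in kidney (0.02 with library totals, 0.00 with a filter of 1 CPM, -0.06 to 0.06 with 1 number left out, 0.07 without KO 15 and KO 18) and in liver (0.06 with voom, -0.19 to 0.05 with 1 number left out). Irf1 in kidney was -0.02 without KO 14. Library totals moved the median of kidney over liver to -0.56 in KO and -0.50 in WT mice. They turned Gbp7 to 0.54 and Eif2ak2 to 0.56 in KO mice, and to 0.85 and 0.63 in WT mice. Gbp7 in WT mice was also 0.01 with no filter and -0.20 to 0.07 with 1 number left out. Kidney and liver libraries of 1 number correlated at 0.08 to 0.42 in their deviations from the group means, over 0.1 in 7 of 9 numbers, and 6 of 9 matched best with their own number, so pairing was not taken as shown. With the number as a replicate block, 0 members passed for the difference (median -0.11), 36 in KO (median -1.5) and 37 in WT mice (median -1.38) for kidney over liver, where 12632 of 16823 and 12779 of 16878 genes passed. In WT mice Eif2ak2 was gained (-0.33, adjusted p = 0.0179 in edgeR) and Gbp3 lost. The block dropped WT 23, which had no liver library. Without WT 23 and with no block, Eif2ak2 was likewise gained and Gbp3 lost. H2afy also passed with DESeq2 in both tissues and with voom in kidney. The median standard error over the 41 genes was 0.16 in kidney and 0.21 in liver, which limits what could be detected.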

Other observations

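Cxcl11, another chemokine of the receptor shared by Cxcl9 and Cxcl10, stood at 1.08, 2.62, 1.06, 1.29 and 0.527 CPM in KO livers 13, 14, 15, 16 and 18, against 1.92, 2.41, 3 and 3.25 CPM in WT livers 19, 20, 22 and 24. Its log2 fold change was -1.0 (SE 0.36, adjusted p = 1 in edgeR), on the same side as Cxcl10 and opposite to Cxcl9, and it was lowest in KO 18. In kidney it had 0.17 (SE 0.32, adjusted p = 0.999).

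S100a8 and S100a9, which neutrophils hold in quantity, had log2 fold changes of -2.07 (SE 0.58) and -1.79 (SE 0.63) in kidney and of -0.78 (SE 0.48) and -0.76 (SE 0.28) in liver, with adjusted p = 0.999 in kidney and 1 in liver. They are the lowest 2 of the leukocyte markers tested in kidney, where the median was -0.02. These genes were named after their values were seen.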
